A study of Mus musculus with 6 samples.

Results

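Cd5, Cd6, Csk, Pag1, Ubash3a, Sla, Sla2, Cbl, Cblb and Themis restrain or tune signalling from the T-cell receptor (TCR), and their transcripts were followed in double-positive thymocytes, the immature T cells that carry CD4 and CD8 together. Each of the 10 genes was represented by the brightest probe set annotated to it alone, by the mean of all arrays, and all 10 of the 10 were found among the 22180 genes measured. Each had a single such probe set. The probe sets were chosen by their mean signal over all 6 arrays, and the genes were selected on their function with the differences between these genotypes already known. The values below therefore describe them, and their p-values only place them in the fit over all genes.

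The genotypes compared were Ets1-/- and wild type (WT), with 3 Affymetrix arrays each. Ets1 encodes an ETS-family transcription factor of lymphocytes. Per the labels the mice were C57BL/6 and 5 to 6 weeks old, and litter-mate cohorts served as replicates. All thymocytes, of either genotype, were crosslinked in formaldehyde and then taken with beads by CD8 and next by CD4. The kind of Ets1 allele and the number of animals behind an array are not stated, so a p-value covers only the spread between these 6 samples, which may in part be technical. In bulk RNA, fewer cells of a type and less RNA per cell cannot be told apart.

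The receptor of a double-positive thymocyte must give a signal of intermediate strength for the cell to be selected, and several brakes set that window. The kinase CSK, brought to the membrane by the adaptor PAG1, phosphorylates the inhibitory tyrosine of LCK and FYN. The ubiquitin ligases CBL and CBLB, with the adaptors SLA and SLA2 and the ubiquitin-binding UBASH3A, limit receptor chains and kinases at the surface, while CD5 and CD6 are surface glycoproteins with scavenger-receptor domains whose tails recruit signalling proteins. THEMIS, bound to GRB2, sets the threshold for selection.

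Because Ets1 binds DNA at sites with a GGAA core, the bases upstream of the RefSeq start sites (build GRCm38.p6) were read for the members with an entry, which were 7 of 10. Shown are those of Cd5, the member with the largest difference, and of the paralogues Cbl and Cblb, whose differences had opposite signs. Each is the 250 bases before the start, 5′ to 3′ in the direction of transcription, with GGAA or its reverse complement TTCC in capitals. They lie at chr19:10738975-10739224 (minus strand), chr9:44234047-44234296 (minus strand) and chr16:52031299-52031548 (plus strand), in the order below.
Cd5: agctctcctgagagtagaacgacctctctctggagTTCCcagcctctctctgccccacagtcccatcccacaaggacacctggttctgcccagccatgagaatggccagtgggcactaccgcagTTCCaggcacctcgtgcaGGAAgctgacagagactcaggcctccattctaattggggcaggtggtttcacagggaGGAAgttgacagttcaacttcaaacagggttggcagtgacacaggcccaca
Cbl: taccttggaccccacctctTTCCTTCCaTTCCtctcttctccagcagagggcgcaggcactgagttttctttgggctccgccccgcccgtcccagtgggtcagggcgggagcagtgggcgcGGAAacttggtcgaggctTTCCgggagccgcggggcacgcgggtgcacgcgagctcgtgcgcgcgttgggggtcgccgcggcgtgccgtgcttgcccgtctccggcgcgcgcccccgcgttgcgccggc
Cblb: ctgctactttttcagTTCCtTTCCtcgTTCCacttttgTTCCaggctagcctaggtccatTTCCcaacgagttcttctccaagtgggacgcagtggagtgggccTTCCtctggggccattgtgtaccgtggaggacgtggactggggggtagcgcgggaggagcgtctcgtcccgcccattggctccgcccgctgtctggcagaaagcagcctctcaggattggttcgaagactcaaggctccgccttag

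The GGAA core, counted on both strands, occurred 4 times upstream of Cd5, 5 times upstream of Cbl and 6 times upstream of Cblb. Of 32851 promoters of this length, 93.4% held at least 1 such core, with a median of 3, and 33.4% held at least as many as Cd5, 18% as many as Cbl and 8.69% as many as Cblb. Ubash3a and Sla2 had 3 each, both start sites of Themis had 1, and the start sites of Csk had 6 and 3. The longer motif CCGGAAG, which contains the core, was found in none of these windows and in 6.91% of all promoters. The RUNX motif TGTGGT, searched on both strands, was present once upstream of Sla2, in none of the others, and in 14% of all promoters.

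The arrays and the cell label were examined first. Array medians were 3.66, 4.31 and 4.19 for Ets1-/- replicates 1 to 3 and 4.21, 4.25 and 4.33 for WT replicates 1 to 3 (log2). The lowest was that of Ets1-/- replicate 1. Bright genes were not all lower on that array, with Cd4 at 11.07 against 11.15 and 11.01 in Ets1-/- replicates 2 and 3. On it 9 of the 10 genes lay below their group mean as deposited, and 1 after centring (median deviation -0.14 and 0.25). Centring is therefore given as an alternative scale, not as a neutral correction. The median difference over all genes, Ets1-/- minus WT, was -0.22, and -0.01 once each array was centred on its median. The single probe set naming Ets1 alone had 9.09 ± 0.27 in Ets1-/- and 9.20 ± 0.11 in WT (log2, SD, n = 3 each), a difference of -0.10 that was 0.11 after centring. Which exons it covers is not given here, so it does not check the genotype labels. Cd4, Cd8a and Cd8b1, the coreceptor genes that define the stage, were above the 99.7th percentile of all probe sets by mean and differed by 0.13, -0.09 and -0.03, and Rag2, a recombinase subunit, by -0.29. After centring Cd4, Cd8a, Cd8b1 and Rag2 were at 0.34, 0.12, 0.18 and -0.08. By limma at an adjusted p under 0.05, 1.29% of all genes rose and 0.568% fell, the shares to set beside each marker count here and below. Of the 10 measured markers of double-positive cells, 1 rose and 0 fell. It was the pre-TCR chain Ptcra (1.50 ± 0.25 SE, limma adjusted p = 0.0282), whose call was lost when any 1 array other than Ets1-/- replicate 1 was left out (adjusted p up to 0.116).

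Markers of other cells differed between the same arrays, which bears on every member that such cells also express. Of 15 macrophage markers, 10 rose and 0 fell, with Csf1r at 3.31, Ctss at 2.78 and C1qa at 2.85. The groups overlapped for 4 of the 15, named after their values were seen, Marco at -0.21, Vsig4 at -0.08, Timd4 at 0.04 and Cd14 at 0.13. The summed signal of the 15 was 11.93 to 12.36 in Ets1-/- and 9.59 to 9.86 in WT (log2). Of 11 dendritic-cell markers, 6 rose and 0 fell, with H2-Aa at 3.48, H2-Eb1 at 4.11 and H2-Ab1 at 3.65, class II genes that B cells and macrophages also express. At an unadjusted p under 0.05, 7 were higher and 1 was lower, as were 4.54% and 8.62% of all genes. Of the other 5, named after their values were seen, Xcr1 was at -1.15 (adjusted p = 0.266), Zbtb46 at -0.38, Ccr7 at -0.07 (0.14 after centring), Flt3 at 0.03 and Siglech at 0.81. The sums of this list were 11.77 to 11.86 in Ets1-/- and 9.00 to 9.26 in WT. Of 11 B-cell markers, 5 rose and 0 fell, with Fcrla at 3.05, Ms4a1 at 6.14 and Cd79a at 4.20, and sums of 11.25 to 11.75 in Ets1-/- and 10.51 to 10.72 in WT. Ighm, the brightest of the list, weighs most in these sums and did not pass (0.60, adjusted p = 0.314). By sign 10 of the 11 lay above 0 and 1 below. The groups overlapped for 2, Cr2 at -0.32 and Fcer2a at 0.81, also named after their values were seen. The WT means of Fcrla, Ms4a1 and Cd79a were 2.45, 0.04 and 2.60, and with a pseudocount of 16 on the linear scale their differences were 1.51, 2.39 and 2.51.

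Of 11 markers of mature T cells, 6 rose and 0 fell, among them Klf2 at 3.60, S1pr1 at 3.54 and Ms4a4b at 2.94, with sums of 11.22 to 11.57 in Ets1-/- and 10.62 to 10.90 in WT. Of the 11, 3 lay below 0 without passing, also named after their values were seen, Cd52 at -0.46, Gimap6 at -0.39 and Ccr7 at -0.07, and for Cd52 and Gimap6 all Ets1-/- arrays were below WT. The 8 natural killer markers had 0 past the limma test (2 higher and 1 lower at an unadjusted p under 0.05, and 2 higher with a pseudocount of 16, where 2.18% of all genes were), with sums of 8.64 to 9.40 in Ets1-/- and 7.71 to 8.47 in WT. Of the 8, 4 lay above 0 and 4 below, with a median difference of -0.06. Gzma, the brightest of them, weighs most in the sum, and its groups overlapped (0.81, limma adjusted p = 0.410). The 10 markers of double-positive cells summed to 13.58 to 13.69 in Ets1-/- and 13.66 to 13.71 in WT. The part of these cells in the results below was not tested.

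**Figure D1:**
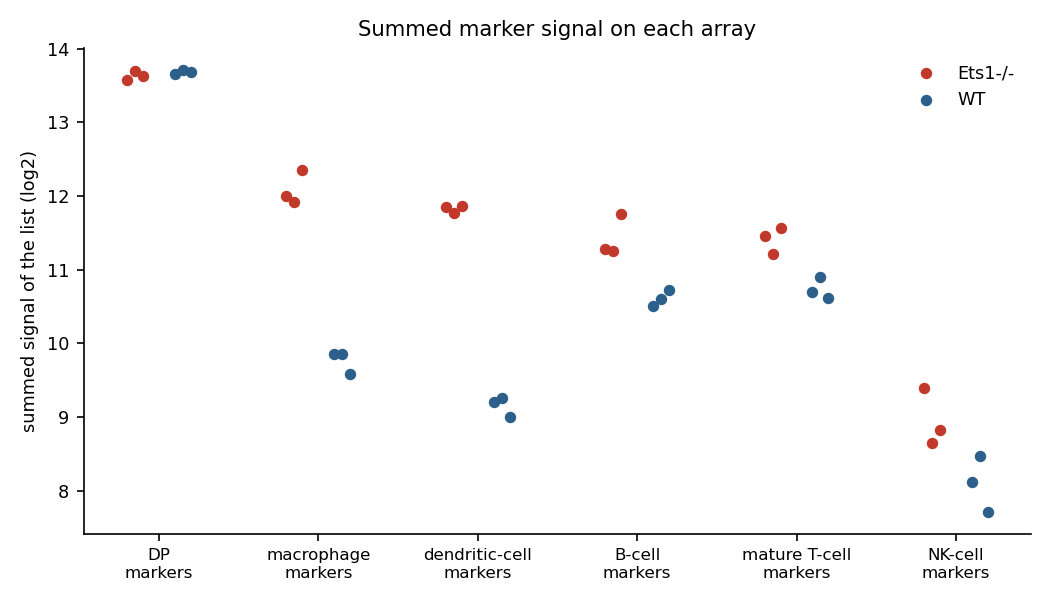
Log2 of the summed linear signal of each marker list (vertical axis) on each array, Ets1-/- in red and WT in blue. The macrophage, dendritic-cell, B-cell, mature T-cell and natural killer sums of the Ets1-/- arrays lie above all WT arrays, while those of the double-positive list overlap, at 13.58 to 13.69 in Ets1-/- and 13.66 to 13.71 in WT. A sum follows its brightest markers, such as Gzma in the natural killer list and Ighm in the B-cell list, neither of which passed the test.

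Of the 10 genes, 1 fell, 0 rose and 9 did not pass the test. Over all genes 0.568% were lower and 1.29% higher by the same rule, limma with Benjamini-Hochberg adjustment over all genes and a threshold of 0.05. The 3 arrays of Ets1-/- lay wholly below those of WT for 6 members (Cd5, Cd6, Pag1, Ubash3a, Sla2 and Cbl) and wholly above them for 1 (Cblb), where 16.1% and 5.76% of all genes did so. Among the 6246 genes above the 75th percentile of signal, 9 of the 10 included, the shares were 21.8% and 10.5%. The median difference of those brighter genes was -0.13, and 0.08 after centring. Since this contrast was known when the genes were chosen, nothing is read from these counts. The median difference of the 10 was -0.67, against -0.22 for all genes, and -0.46 against -0.01 after centring.

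**Figure D2:**
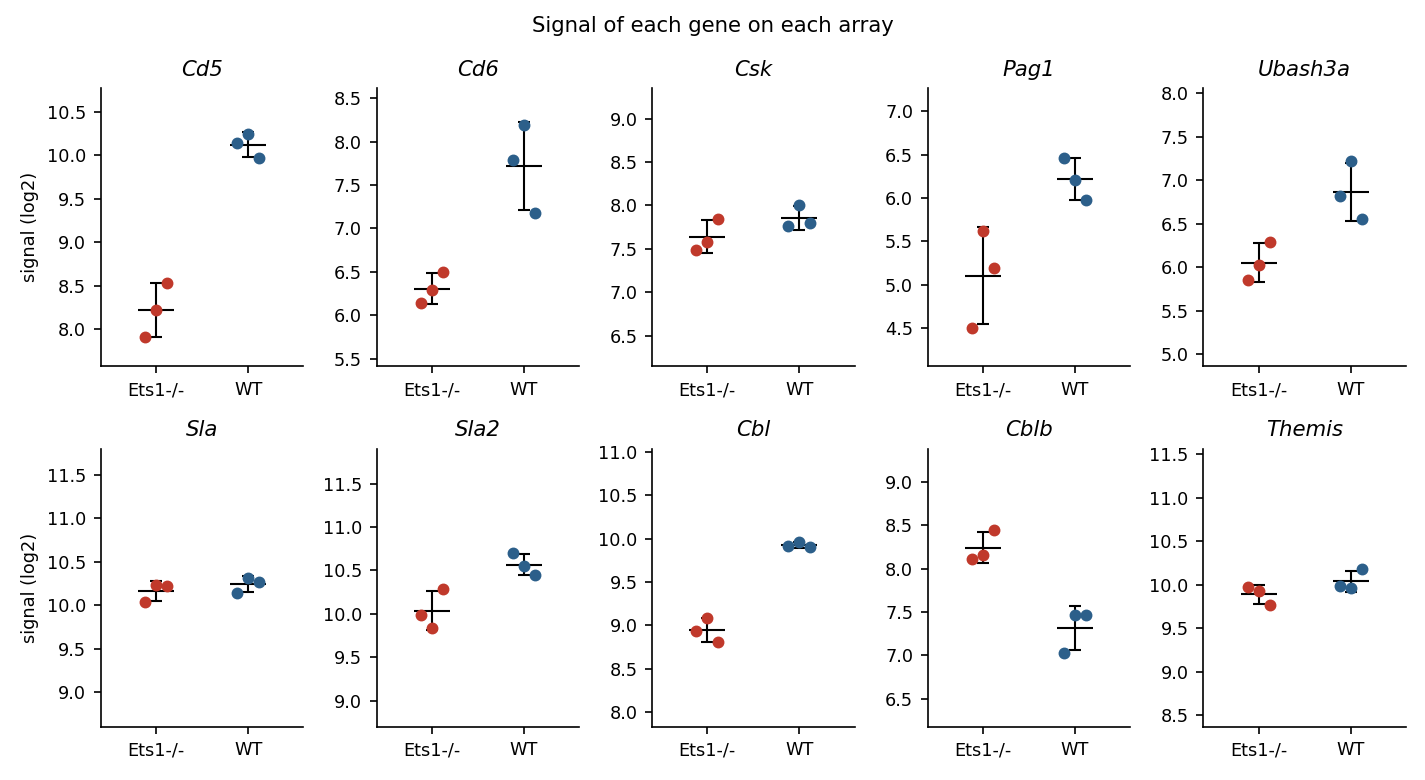
Log2 signal of each gene on each array, Ets1-/- in red and WT in blue, with the mean and SD (n = 3 per group) as black bars; each panel spans the same range of log2 units. The groups are furthest apart for Cd5, at 8.22 in Ets1-/- and 10.13 in WT, and overlap for Csk, Sla and Themis.

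Cd5 had the largest difference of the 10. CD5 dampens receptor signals in thymocytes, and its surface level is known to follow the strength of those signals. Its log2 signal was 7.91, 8.22 and 8.54 in Ets1-/- replicates 1 to 3, against 10.15, 10.25 and 9.97 in WT replicates 1 to 3. All Ets1-/- arrays were lower, and the highest of them stayed well below the lowest WT array. The difference was -1.90 ± 0.25 (SE, 95% interval -2.48 to -1.33; adjusted p = 0.00937), so that the signal in Ets1-/- was 26.7% of that in WT. After centring it was -1.69 (adjusted p = 0.00534). Without Ets1-/- replicate 2 the difference was again -1.90, with an adjusted p of 0.0509.

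Cd6 encodes a relative of CD5 that binds the adhesion molecule ALCAM. Its gene is the neighbour of Cd5 in RefSeq, with 0 protein-coding genes between them. Of the nearest measured genes on either side, Slc15a3, beyond Cd6, was higher in Ets1-/- (2.19, limma adjusted p = 0.00811). Vps37c, beyond Cd5, was at 0.09 (adjusted p = 0.937). Cd6 had 6.14, 6.29 and 6.50 in Ets1-/-, against 7.79, 8.19 and 7.18 in WT (log2). The groups did not overlap, and the WT arrays were spread more widely than the Ets1-/- arrays. The difference was -1.41 ± 0.30 (SE, interval -2.11 to -0.71), or 37.7% of the WT signal, with an adjusted p of 0.0712. It passed under 6 of the 18 alternative settings, among them a pseudocount of 16 (-1.25, adjusted p = 0.0207). Within each array Cd6 minus Cd5 averaged -1.91 ± 0.14 in Ets1-/- and -2.41 ± 0.37 in WT (SD, n = 3 each), so this ratio, which no shift of a whole array can move, differed by 0.50.

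The kinase Csk and its anchor Pag1 had unlike values. Csk had 7.49, 7.58 and 7.85 in Ets1-/- and 7.76, 8.01 and 7.80 in WT (log2). The groups overlapped, with a difference of -0.22 (95% interval -0.73 to 0.30; adjusted p = 0.692) that was 0.00 after centring. Pag1, the membrane adaptor, had 4.51, 5.62 and 5.19 in Ets1-/-, against 6.47, 6.21 and 5.98 in WT. All Ets1-/- arrays were lower, although replicate 1, the array with the low median, was the lowest of them. The difference was -1.11 ± 0.32 (SE, interval -1.86 to -0.36; adjusted p = 0.177), and -0.90 after centring (adjusted p = 0.0964). Its mean over the arrays lay at percentile 74.2 of all probe sets. Pag1 passed under 1 of 17 alternatives, the pseudocount of 16 with centring (-0.72, adjusted p = 0.0399).

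The ubiquitin ligases Cbl and Cblb had differences of opposite sign, and neither passed the test. Cbl encodes the ligase known to restrain receptor levels in thymocytes. Its signal was 8.93, 9.09 and 8.81 in Ets1-/-, against 9.91, 9.96 and 9.90 in WT (log2). The WT arrays were nearly equal, and all Ets1-/- arrays lay below them, by -0.98 ± 0.21 (SE, interval -1.47 to -0.49; adjusted p = 0.0718), or 50.8% of the WT signal. The SDs of Cbl were 0.14 in Ets1-/- and 0.03 in WT (n = 3 each), while that SE is moderated over all genes.

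Cblb encodes the ligase known above all for holding back mature T cells that lack costimulation. It had 8.11, 8.16 and 8.45 in Ets1-/-, against 7.03, 7.46 and 7.47 in WT (log2). All Ets1-/- arrays were higher, by 0.92 ± 0.24 (SE, interval 0.36 to 1.48; adjusted p = 0.130), or 1.89 times WT. Either gene passed under 8 of 18 alternatives, Cbl for example with quantile normalization (-1.02, adjusted p = 0.0190) and Cblb with centring (1.13, adjusted p = 0.0415), but Cbl did not pass with centring alone (-0.77, adjusted p = 0.142). The variance model mattered most for Cbl. With an intensity trend and a robust prior the adjusted p was 4.38e-07 for Cbl and 0.00315 for Cblb, at the same differences. The highest values were 0.270 for Cbl, without WT replicate 2, and 0.408 for Cblb, without WT replicate 1.

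The ratio within each array sets the scaling of arrays aside. Cblb minus Cbl was -0.82, -0.93 and -0.37 in Ets1-/- replicates 1 to 3, against -2.89, -2.50 and -2.43 in WT replicates 1 to 3 (log2 difference between probe sets, which has no meaning as a level). Every Ets1-/- array lay above every WT array. The means, -0.71 ± 0.30 in Ets1-/- and -2.61 ± 0.25 in WT (SD, n = 3 each), differed by 1.90, a 3.73-fold shift of the ratio towards Cblb. This pair was chosen after its values were seen, so the shift was not tested.

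The adaptors that work with these ligases had smaller differences. SLA, known to act with CBL in removing receptor chains from double-positive cells, had a transcript signal of 10.03, 10.23 and 10.22 in Ets1-/- and 10.14, 10.32 and 10.27 in WT. The groups overlapped, with a difference of -0.08 (interval -0.57 to 0.41; adjusted p = 0.883) that was 0.13 after centring. Its paralogue Sla2 had 9.99, 9.84 and 10.28 in Ets1-/-, against 10.70, 10.55 and 10.45 in WT. These groups did not overlap, but the difference of -0.53 (interval -1.06 to 0.00) did not pass (adjusted p = 0.382), and it was -0.32 after centring. With an intensity trend and a robust prior Sla2 passed at the same difference (adjusted p = 0.00478). Within arrays Sla2 minus Sla averaged -0.13 ± 0.24 in Ets1-/- and 0.32 ± 0.20 in WT (SD, n = 3 each).

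Ubash3a, whose product binds CBL and ubiquitin and is a weak phosphatase, had 5.85, 6.02 and 6.29 in Ets1-/-, against 6.82, 7.22 and 6.56 in WT (log2). All Ets1-/- arrays were lower, by -0.81 ± 0.26 (SE, interval -1.41 to -0.20; adjusted p = 0.227), and it passed under none of the 18 alternatives, where the adjusted p went down to 0.0681. Themis, by contrast, had 9.97, 9.93 and 9.77 in Ets1-/- and 9.99, 9.96 and 10.18 in WT. The groups overlapped, with a difference of -0.15 (interval -0.65 to 0.34; adjusted p = 0.769) that was 0.06 after centring. The intervals of Csk, Sla and Themis exclude a difference as large as that of Cd5, though not smaller ones in either direction.

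**Figure D3:**
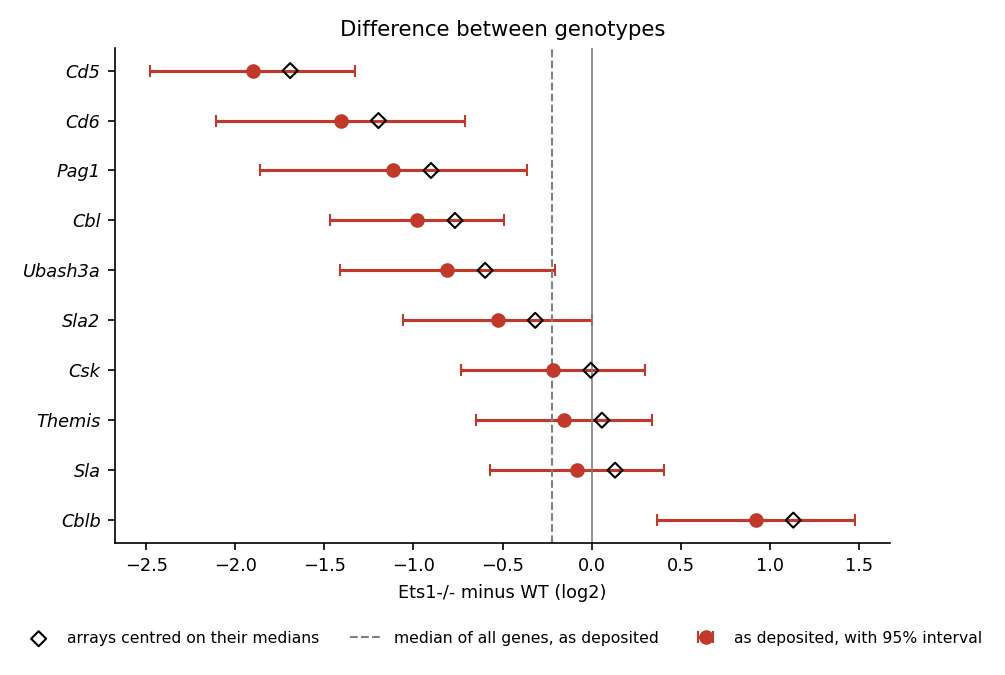
Difference between genotypes, Ets1-/- minus WT in log2 units (horizontal axis), for each of the 10 genes, as deposited (red, with the 95% interval of limma) and after centring each array on its median (open diamonds). The dashed line is the median of all genes, -0.22; Cd5 lies furthest left at -1.90, and Cblb, at 0.92, is the only gene of the 10 to the right of 0 as deposited, while Sla (0.13) and Themis (0.06) join it after centring.

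The proteins that these brakes act on or bind were set beside them. Of 29 measured partners and substrates, 2 fell, 0 rose and 27 did not pass, where 0.568% of all genes fell and 1.29% rose. Their median difference was -0.21, against -0.22 for all genes. The Ets1-/- arrays lay wholly below WT for 16 of the 29 and wholly above for 5, where 16.1% and 5.76% of all genes did so. With a pseudocount of 16, 6 were lower and 1 was higher, against 1.91% and 2.18% of all genes.

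Sh2d2a, which encodes the LCK-binding T-cell adaptor TSAd, had 5.88, 5.62 and 6.21 in Ets1-/-, against 8.51, 8.54 and 8.10 in WT (log2). All Ets1-/- arrays were lower, by -2.48 ± 0.26 (SE; adjusted p = 0.00332). Tespa1, a thymocyte protein required for efficient positive selection as Themis is, had 6.64, 6.89 and 6.83 in Ets1-/-, against 8.39, 8.47 and 8.64 in WT. Here too the groups were far apart, with a difference of -1.72 ± 0.22 (SE; adjusted p = 0.00811). Both kept their call under all 18 alternatives, with an adjusted p of at most 0.0270 for Sh2d2a and 0.0427 for Tespa1. The kinases Fyn, a target of CSK, at -0.91 (adjusted p = 0.0957), and Syk, at 1.05 (adjusted p = 0.119), came next by p and did not pass. SYK is the relative of ZAP-70 used by B and myeloid cells. Both genes passed with the pseudocount (-0.76 and 0.77, adjusted p = 0.0108 and 0.0381). Zap70 itself, named after its values were seen, was at -1.37 and did not pass (limma adjusted p = 0.127). All its Ets1-/- arrays were below WT, with replicate 1 the lowest at 6.35. Zap70 passed after centring (-1.16, adjusted p = 0.0453) and with the pseudocount (-1.27, adjusted p = 0.0419).

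Among 29 other measured inhibitors of receptor signalling, 0 fell and 0 rose (limma). At an unadjusted p under 0.05, 3 were lower and 2 higher, against 8.62% and 4.54% of all genes, and with a pseudocount of 16, 2 were lower and 1 higher, against 1.91% and 2.18% of all genes. Their median difference was 0.02, against -0.22 for all genes. The smallest p belonged to Dok3, an adaptor of B and myeloid cells, at 3.60 ± 0.08 in Ets1-/- and 1.23 ± 1.06 in WT (SD, n = 3 each; difference 2.37, adjusted p = 0.0612); with the pseudocount the difference was 0.59 and passed (adjusted p = 0.0342). Sit1, a transmembrane adaptor of T cells, had 4.61, 6.55 and 6.58 in Ets1-/-, against 8.59, 8.10 and 8.34 in WT, a difference of -2.43 with an adjusted p of 0.0711, in which Ets1-/- replicate 1 stood apart. It passed after centring (-2.22, adjusted p = 0.0240). The related adaptor Lax1 was at -2.01 (adjusted p = 0.103), and at -1.23 with the pseudocount, where it passed (adjusted p = 0.0382). The cytokine-induced Cish was at 2.05 (adjusted p = 0.149), at 1.31 as the mean of its 2 probe sets (adjusted p = 0.329) and at 1.12 with the pseudocount (adjusted p = 0.0705).

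**Figure D4:**
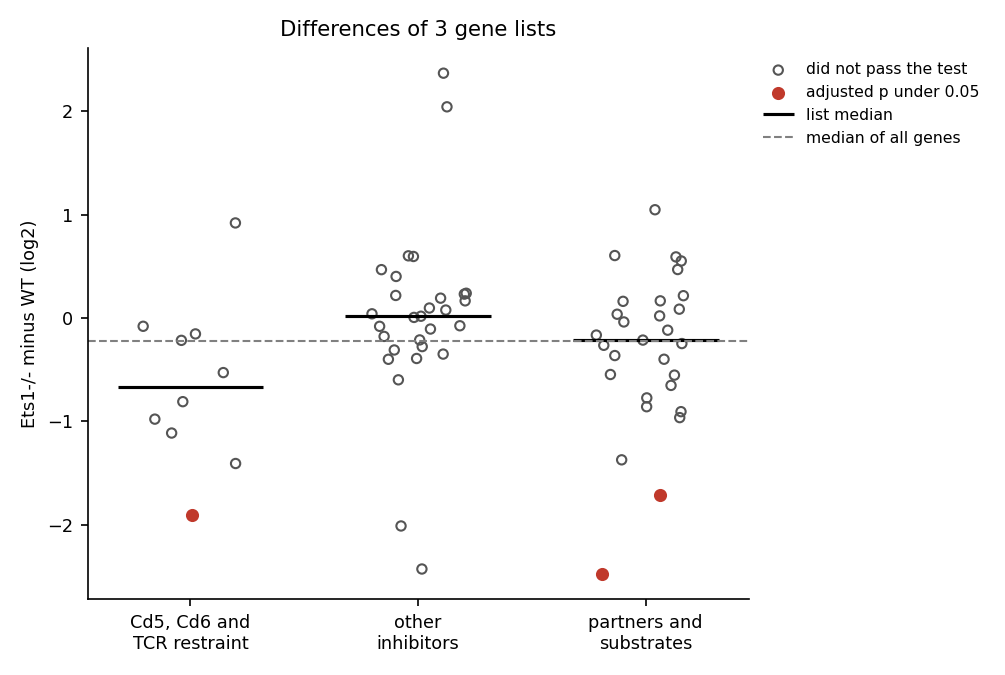
Difference between genotypes, Ets1-/- minus WT in log2 units (vertical axis), for each gene of 3 lists; filled points passed the test, black lines are list medians and the dashed line is the median of all genes, -0.22. Cd5 is the filled point of the left column, and Sh2d2a and Tespa1 are those of the right column.

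The genes whose pattern over the 6 arrays was most like that of Cd5 were taken by Pearson correlation of median-centred values among 5983 brighter named genes, as a description of 2 groups of arrays that Cd5 itself separates. They were Fam117a (r = 0.999), the lipoprotein receptor Lrp8 (0.995), Mospd4 (0.995), Tbc1d10c (0.994), which encodes the calcineurin inhibitor carabin, and Ppp1r18 (0.994). Tbc1d10c averaged 6.91 in Ets1-/- and 8.26 in WT (log2), and fell by 1.35 (adjusted p = 0.0263). Ppp1r18 averaged 6.07 in Ets1-/- and 7.74 in WT and fell by 1.66 (adjusted p = 0.0201), but the mean of its probe sets was at -0.11 (adjusted p = 0.935). Tbc1d10c lost its call without any 1 array other than Ets1-/- replicate 1 (adjusted p up to 0.118), and Ppp1r18 without Ets1-/- replicate 2 or any 1 WT array (up to 0.0814). The other 3 did not pass, Fam117a at -1.02, Lrp8 at -1.12 and Mospd4 at -0.34. After centring, the scale of the correlation, Mospd4 was at -0.13 against -1.69 for Cd5. A high r therefore describes the pattern over arrays and not its size.

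For Cd6 the most similar genes were the kinase Stk10 (r = 0.994), Asb3 (0.992), the GTPase Gimap9 (0.989), Plekhg2 (0.986) and Coro7 (0.983), with differences between -1.10 and -0.61 and none past the test. Cd6 itself ranked 210 in likeness to Cd5 and Cd5 ranked 94 in likeness to Cd6 (r = 0.930).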

How the data were processed

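RNA of 3 Ets1-/- and 3 WT samples was hybridised to 1-colour Affymetrix arrays. The deposited values are log2 signals of 41345 probe sets, read as log2 from their range. Per the submitters' processing notes the authors used affy. Their background correction, normalization and build are not stated in any source used here. Platform annotation named 1 gene for 23521 probe sets, several for 1814 and none for 16010; the brightest of a gene's probe sets stood for it, giving 22180 genes without a filter on dim signals.

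Differences, Ets1-/- minus WT, were fitted over all genes with limma 3.58.1 in R 4.3.3 (lmFit, eBayes, two-sided, no covariate) and adjusted by Benjamini-Hochberg at 0.05; SE is the moderated standard error. The fit was tested on simulated data, where most of the added changes were missed, so a gene that did not pass is not shown to be unchanged. Promoter motifs and plots used Python 3.11.15 and matplotlib 3.10.9. Members and gene lists were chosen with earlier results of these data known. The text names all members, Ets1, the called genes of each pathway list or its 4 smallest p, up to 3 called genes of each marker list with set stage markers, and the 5 genes most like Cd5 and Cd6 among those above percentile 75 of signal. Zap70 was added after its values were seen. The alternatives were another probe-set summary, filters, normalizations, a pseudocount of 16 on the linear scale, variance models, a replicate block and leaving out each array. The number of arrays limits the precision, and no 2 arrays were identical.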

Additional observations from a re-analysis of the deposited data

How the results depend on the processing

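Of 179 values of the 10 genes under the alternatives, 149 kept their sign and their side of the threshold, 24 passed it in addition, 1 no longer passed (Cd5 without Ets1-/- replicate 2) and 5 changed sign. The changes of sign, 3 of Sla and 2 of Themis, were all in settings with centring. Without a pseudocount, centring raised the difference of every gene by the same amount. The cause of the other changes was not tested. The count over all genes, 413, was 798 with quantile normalization, 745 with median centring, 777 with cyclic loess, 907 with a pseudocount of 16, 1239 with centring added to it, 1172 with an intensity trend and robust prior, 1019 with array weights and 541 of the 6246 genes above the 75th percentile. Leaving out 1 array gave 190 to 379, and every array except Ets1-/- replicate 1 lowered it by over 1.5 times.

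Of the 10 genes, 1 was called lower and 0 higher. With the filter at the median 3 were lower, and with that at the 75th percentile 3 lower and 1 higher. It was 2 and 1 with quantile normalization or cyclic loess, 1 and 1 with centring, 3 and 1 with the pseudocount or array weights, and 4 and 1 with pseudocount and centring or the trend. Without 1 array it was 0 to 1 lower and 0 higher. Of the other inhibitors, 0 were called either way. The number lower was 1 with either filter, quantile normalization, centring, loess, weights or pseudocount with centring, and 2 with the pseudocount or the trend. The number higher was 1 with centring (also in the block), loess, weights or the pseudocount, and 2 with pseudocount and centring or the trend. Each was 0 to 1 without 1 array. Of the partners and substrates, 2 were lower and 0 higher. The number lower was 6 above the 75th percentile or with the pseudocount, 8 with pseudocount and centring or the trend and 4 with weights, and the number higher was 1, 1 and 3 with the pseudocount, with centring added and with the trend. Without 1 array these stayed at 2 and 0.

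The sign of some small differences changed. With centring, alone or in the block, Sla was at 0.132, Themis at 0.0581, Ets1 at 0.108, Cd8a at 0.123 and Cd8b1 at 0.178. With centring and the pseudocount Sla was at 0.0264, Ets1 at 0.00428, Cd8a at 0.0173 and Cd8b1 at 0.0721. Cd8b1 was also at 0.0519 with quantile normalization and 0.00127 with array weights. Leaving out 1 array gave -0.0963 to 0.0176 for Cd8b1, above 0 without Ets1-/- replicate 1, and -0.194 to 0.0489 for Ets1, above 0 without Ets1-/- replicate 3.

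Same-numbered arrays of the genotypes did not deviate together (r over all genes -0.07, -0.01 and -0.05), and no array correlated best with its own number, so the numbers were not taken as pairs. With the replicate block 311 genes were called, and 432 with centring added; Cd5 remained called (adjusted p = 0.0364 and 0.0357), while Ptcra, Tbc1d10c and Ppp1r18 lost their calls in the block without centring (0.0871, 0.0870 and 0.0501) and Tbc1d10c also with it (0.0770). With 3 arrays per group and no detection values, neither presence nor small differences of dim genes could be judged.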
